A study of Mus musculus with 2 samples.

Results

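The phase II conjugation enzymes join glucuronic acid, sulfate or glutathione to drugs, steroids, bile acids and products of oxidation, so that these can leave the cell. The genes described here are those of the UDP-glucuronosyltransferases (UGT), the sulfotransferases (SULT), the mostly cytosolic glutathione transferases (GST) and the microsomal glutathione transferases (MGST). They were chosen by the start of the gene symbol, from probe sets whose platform annotation names 1 gene alone. This gave 46 genes of 18194 named on the array, read by 59 probe sets of 34958. The RNA was from liver of 2 males, each 3 months old and fasted overnight, on a mixed 129Sv/C57BL6 background. The control liver is described in the labels only as control, with no genotype named, and the other came from a mouse carrying the Tmprss6-/- genotype made by gene targeting. Tmprss6 encodes matriptase-2, a hepatocyte protease that restrains hepcidin. Each group held 1 animal and 1 array, so no error between animals can be given and no test can be run, and every difference below is a difference between these 2 livers.

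As background, UGT enzymes sit in the membrane of the endoplasmic reticulum and take glucuronic acid from UDP-glucuronic acid. SULT enzymes are cytosolic and take sulfate from PAPS, the activated sulfate donor. GST enzymes are mostly cytosolic, use glutathione and are named by class (alpha, kappa, mu, omega, pi, theta, zeta), while MGST enzymes are membrane proteins of another fold. The liver is rich in all of them, several differ between male and female mice, and the nuclear receptors CAR (Nr1i3) and PXR (Nr1i2), the aryl hydrocarbon receptor (Ahr) and the oxidant sensor NRF2 (Nfe2l2) are known regulators.

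Values are Affymetrix MAS5 signals, a brightness per probe set on a linear scale. A gene was called measured where its brightest probe set reached a signal of 17.8, the median of all probe sets, on at least 1 array. Ratios are log2 of Tmprss6-deficient over control. The error given is the SD of the log2 ratio of a single probe set, estimated from the differences between the brightest sets of the same gene. It is called the probe set SD here. It was 0.46 for signals up to 64, 0.37 from 64 to 256, 0.32 from 256 to 1024 and 0.18 above, and it leaves out variation between animals. The targeted gene read 1869 in the control and 88.0 in the Tmprss6-deficient liver, but the sources do not say whether its probes lie in the deleted part. Of 10 hepatocyte markers listed, the 7 named alone on the array (Alb, Apoa1, Apob, Ttr, Cps1, Asgr1 and Fgb) were all measured and within 1.5-fold, with a summed signal of 131917 in the control and 129475 in the Tmprss6-deficient liver. In whole liver, fewer cells of a type and less RNA per cell cannot be told apart.

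Most conjugation genes read lower in the Tmprss6-deficient liver. Of 46 genes, 37 were measured, 36 of them on both arrays, and 9 were below the floor on both. Of the 37, 16 were lower by 1.5-fold or more (43.2%), against 9.26% of all 12244 measured genes. A further 19 lay within 1.5-fold, and 2 were at least 1.5-fold higher (5.41%), against 8.81%. At 2-fold or more, 6 were lower, against 2.81% of all measured genes, and 0 were higher, against 2.35%. A ratio below 0, of any size, was seen for 29 of the 37, against 50.6%, and the median log2 ratio was -0.47 against -0.0066. Bright genes as a whole leaned lower too. Among 1030 measured genes with a mean signal of 1024 or more, 61.7% had a ratio below 0 and 5.63% were lower by 1.5-fold or more. Of the 18 conjugation genes in that range, 15 were below 0 and 7 lower by 1.5-fold or more.

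**Figure D1:**
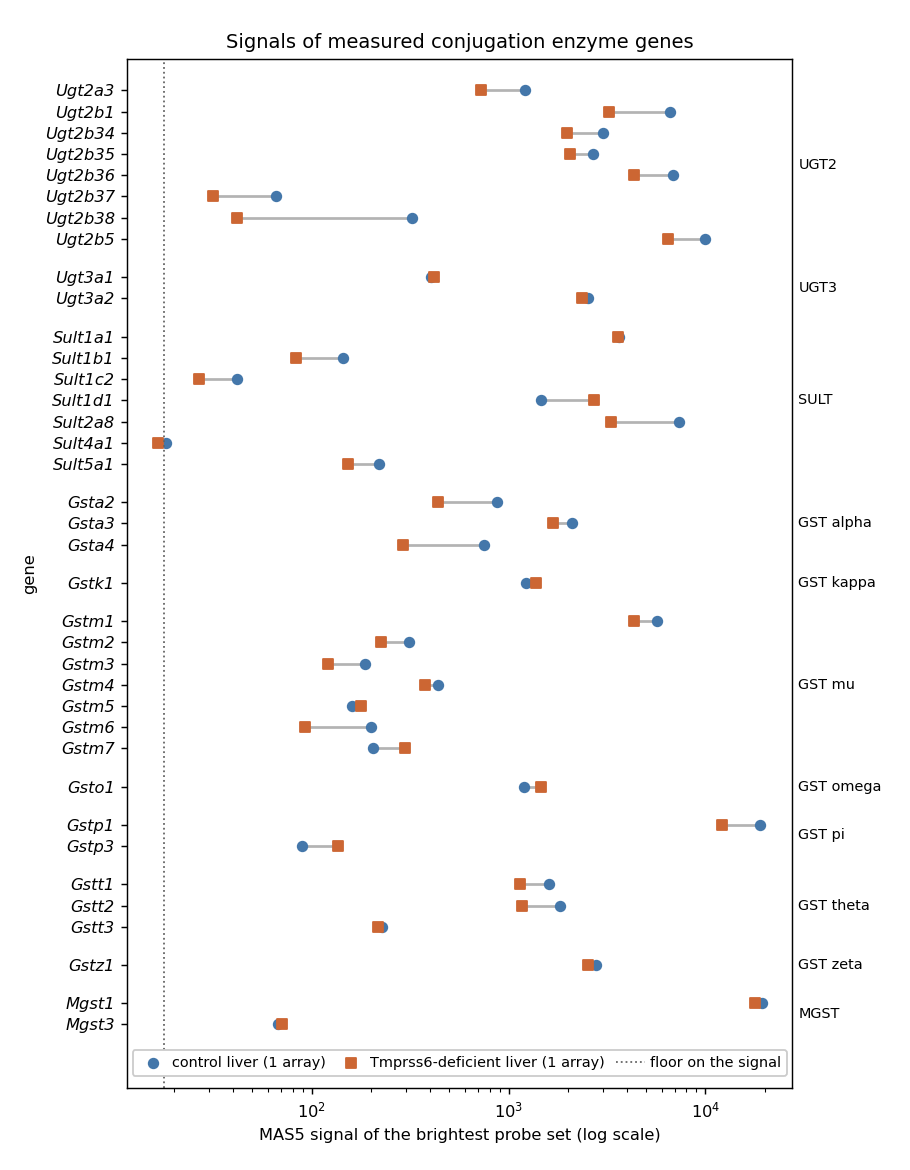
MAS5 signal (log axis) of the brightest probe set of the 37 measured genes in the control liver (circle) and the Tmprss6-deficient liver (square), 1 array each, grouped by enzyme family. The dotted line is the floor of 17.8. In all 8 Ugt2 genes the square lies to the left of the circle, and in Sult1d1, Gstm7 and Gstp3 it lies to the right.

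The UGT2 family, whose enzymes conjugate steroids, bile acids and many drugs, was lower throughout. All 8 genes named on the array were measured on both, and all 8 read lower in the Tmprss6-deficient liver, also under every alternative processing tried. Of these, 7 did so by at least 1.5-fold (87.5%, against 9.26% of all measured genes). The median log2 ratio was -0.70. Ugt2b38 read 324 in the control and 42.0 in the Tmprss6-deficient liver, 7.71-fold lower (log2 ratio -2.95, probe set SD 0.37). It stood well apart from the other 7, which ran from -1.07 to -0.38.

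Ugt2b1 read 6635 in the control and 3239 in the other liver, 2.05-fold lower (-1.03, SD 0.18). Ugt2b37 was dim, at 65.9 and 31.4, and 2.10-fold lower (-1.07, SD 0.46). These were the only other Ugt2 genes lower by 2-fold or more. Ugt2a3 read 1208 and 720.2 and was 1.68-fold lower. Ugt2b36 read 6859 and 4349, a 1.58-fold difference. Ugt2b5 read 9974 and 6474, or 1.54-fold lower. These 3 and Ugt2b34 had ratios close together, from -0.75 to -0.62.

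Ugt2b34 had 2 probe sets, at 3029 and 1977 (1.53-fold lower) and at 1530.3 and 1097 (1.40-fold lower), so that its brighter set is just past 1.5-fold and its other just short of it. Under 4 of 10 alternative processings it fell short of 1.5-fold, as did Ugt2b5 under 2 and Ugt2b36 and Ugt2b37 under 1. Ugt2b35 was the only Ugt2 gene within 1.5-fold, at 2679 and 2057 (-0.38, SD 0.18). The Ugt2b genes are close copies of each other, and a probe set made for one can take up transcripts of another, so the single values are less certain than the direction of the family.

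The bases just before the start of each Ugt2 gene are shown because the family read lower together and because its most different member has a promoter much like those of Ugt2b37 and Ugt2b5. They are the 100 bases before the start in RefSeq's GRCm38.p6 annotation, in the direction of the gene, and capitals mark a run of 13 bases that fits GTTANANNTTAAC. Letters in this pattern are the 10 positions identical in all 7 Ugt2b genes and N is any base.
Ugt2b38: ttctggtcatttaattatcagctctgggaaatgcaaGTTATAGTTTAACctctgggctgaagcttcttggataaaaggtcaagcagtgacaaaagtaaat
Ugt2b37: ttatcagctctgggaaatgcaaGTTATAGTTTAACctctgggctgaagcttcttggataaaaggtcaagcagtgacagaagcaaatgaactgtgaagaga
Ugt2b5: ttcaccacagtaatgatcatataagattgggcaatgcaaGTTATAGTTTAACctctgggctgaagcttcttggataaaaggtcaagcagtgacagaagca
Ugt2b36: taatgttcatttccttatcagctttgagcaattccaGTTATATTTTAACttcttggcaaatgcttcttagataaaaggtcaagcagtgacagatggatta
Ugt2b35: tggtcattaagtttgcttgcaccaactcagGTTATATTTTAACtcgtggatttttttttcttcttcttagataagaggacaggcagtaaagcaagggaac
Ugt2b1: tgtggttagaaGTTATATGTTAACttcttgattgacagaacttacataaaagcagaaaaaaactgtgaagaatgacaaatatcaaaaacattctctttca
Ugt2b34: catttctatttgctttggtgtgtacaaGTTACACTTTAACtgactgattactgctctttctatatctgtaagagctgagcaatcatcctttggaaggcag
Ugt2a3: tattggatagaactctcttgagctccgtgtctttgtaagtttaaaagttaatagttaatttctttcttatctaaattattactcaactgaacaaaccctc

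These stretches lie at chr5:87424204-87424303 for Ugt2b38, chr5:87254789-87254888 for Ugt2b37, chr5:87140341-87140440 for Ugt2b5 and chr5:87092556-87092655 for Ugt2b36, all on the minus strand. Ugt2b35 lies at chr5:87000760-87000859 on the plus strand. Ugt2b1 at chr5:86926504-86926603, Ugt2b34 at chr5:86906938-86907037 and Ugt2a3 at chr5:87337196-87337295 are on the minus strand. The run was present in 7 of the 8 Ugt2 stretches, all but that of Ugt2a3, beginning from 61 to 89 bases before the start. It resembles the sequence bound by hepatocyte nuclear factor 1, a known activator of UGT2B promoters. The pattern was built from the Ugt2b promoters alone as the best-kept run of that length, so its presence in them is no result. Its absence from Ugt2a3 is none either, since that promoter was not searched for other forms of the sequence. Searched on both strands in all 32851 RefSeq windows from 250 bases before to 50 after a start, it was found in 0.0913%, belonging to 29 of 27025 genes. Among 41 conjugation genes with such a window it was found in 8, the other being Ugt3a1, whose signal hardly differed between the livers.

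Ugt2b38 stood apart in its ratio, and its promoter sequence was close to those of Ugt2b37 and Ugt2b5. Over the 250 bases before the start, Ugt2b38 matched Ugt2b37 in 85.2% of aligned positions and Ugt2b5 in 81.5%, and these were the most alike of the 28 pairs. Their log2 ratios lay 1.88 and 2.32 apart. The next pair, Ugt2b37 and Ugt2b5, matched in 73.0% and lay 0.45 apart. Ugt2b38 and Ugt2a3, which lie side by side on the chromosome, matched in 48.3% and lay 2.20 apart. This describes 8 genes that share their arrays and part of their sequence. Ugt2b37 is dim, so its ratio is uncertain, and Ugt2b probe sets may take up transcripts of other copies. Whether the promoter has a part in the ratios was not tested.

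In chromosome order the Ugt2 genes form a run on chromosome 5 that ends in 3 sulfotransferase genes. From Ugt2b34 to Sult1b1, each of the 9 genes with a ratio read lower, and the next, Sult1d1, read higher. Ythdc1, the neighbour before Ugt2b34, read 482.9 and 523.6, a log2 ratio of 0.12. Ugt2a1 and Ugt2a2, which lie between Ugt2b38 and Sult1b1, are read only by a probe set that names both, at 2.70 in the control and 19.4 in the Tmprss6-deficient liver, close to the floor.

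**Figure D2:**
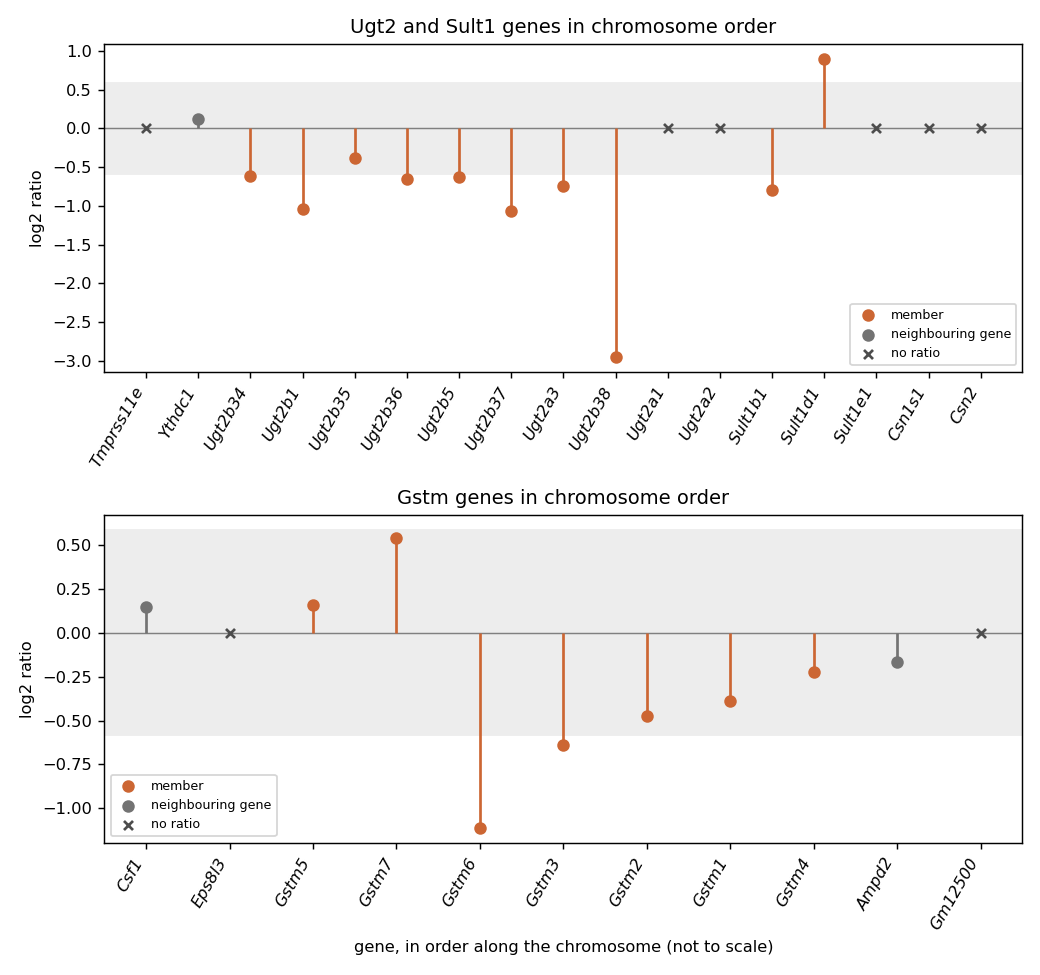
Log2 ratio of members (orange) and neighbouring genes (grey) in their order along the chromosome, with crosses at 0 for genes without a ratio and a grey band for differences within 1.5-fold. In the upper panel every Ugt2 ratio lies below 0 and Sult1d1 lies at 0.90. In the lower panel Gstm5 and Gstm7 lie above 0 and the brightest probe sets of the next 5 Gstm genes, Gstm1 included, below it.

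The UGT1 and UGT3 families differed little. No probe set names a Ugt1 gene alone, since the Ugt1a genes share their last exons. The 3 probe sets that name 8 Ugt1a genes together, which are outside the count of members, read 12371 and 11535, 7423 and 6588, and 6035 and 5828, the control first. Their log2 ratios ran from -0.17 to -0.050. UGT3 enzymes use sugar donors other than glucuronic acid. Ugt3a2 read 2537 and 2366, a log2 ratio of -0.10. Ugt3a1 read 401.9 and 419.9 on its brighter probe set and 365 and 293 on the other, ratios of 0.063 and -0.32, and its sign turned when the 2 were averaged.

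Sulfotransferase genes read lower more often than higher. Of 13 named genes, 7 were measured, 3 of them lower by 1.5-fold or more (42.9%, against 9.26% of all measured genes) and 1 higher (14.3%, against 8.81%), with a median log2 ratio of -0.52. Sult2a8, which encodes a bile acid sulfotransferase of mouse liver, read 7362 in the control and 3304 in the Tmprss6-deficient liver, 2.23-fold lower (-1.16, SD 0.18). Sult1d1, whose enzyme sulfates catecholamines, went the other way. It read 1457 and 2716 on 1 probe set and 503 and 929.7 on the other, 1.86-fold and 1.85-fold higher, the highest ratio of any conjugation gene (0.90, SD 0.18).

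Among the other SULT1 genes, Sult1b1, whose enzyme acts on thyroid hormones, read 144 and 83.3, 1.73-fold lower (-0.79, SD 0.37). Sult1c2 was dim, at 41.7 and 26.9, and 1.55-fold lower (-0.63, SD 0.46), and it fell short of 1.5-fold with the floor added as a pseudocount. Sult1a1, the main phenol sulfotransferase, read 3651 and 3580, a log2 ratio of -0.029 that turned above 0 with quantile normalization and with loess. The difference in this bright gene was smaller than its probe set SD of 0.18, while Sult1b1 and Sult1d1 differed in opposite directions.

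Sult5a1 read 219 and 153, a log2 ratio of -0.52 (SD 0.37). Sult4a1, a brain form, passed the floor in the control alone, at 18.2 against 16.5, and was at least 1.02-fold lower. The other 6 got no ratio, since they were below the floor on both arrays. They were Sult1c1, the estrogen sulfotransferase gene Sult1e1, Sult2a2, the cholesterol sulfotransferase gene Sult2b1, Sult3a1 and Sult6b1. Their signals were between 0.600 and 15.3.

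The GST genes, Gstk1 of mitochondria and peroxisomes included, leaned lower, unequally between classes. Of 20 named genes, 18 were measured. By 1.5-fold or more, 6 were lower (33.3%, against 9.26% of all measured genes) and 1 was higher (5.56%, against 8.81%). The median log2 ratio was -0.36. The alpha class, which includes the enzymes that clear lipid peroxidation products, was lowest, with a median of -0.99 over 3 genes. Gsta4, whose enzyme conjugates 4-hydroxynonenal, read 752 in the control and 290.8 in the other liver, 2.59-fold lower (-1.37, SD 0.32). Gsta2 read 871 and 439, 1.99-fold lower (-0.99, SD 0.32). A probe set shared by Gsta2, Gsta1 and Gm3776, outside the count, read 443 and 262, 1.69-fold lower. Gsta3 read 2099.7 and 1674 and was 1.25-fold lower on this set and 1.22-fold lower on its other. The 3 genes thus read lower together, Gsta3 by the least.

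The mu class was split. Of 7 genes, all measured on both arrays, 5 read lower and 2 higher on the brightest probe set. Gstm1 was among the lower, although its sets disagree. In 2 genes the gap was 1.5-fold or more, both lower (28.6%, against 9.26% of all measured genes). The median was -0.39. Gstm6 read 199 and 92.1, 2.16-fold lower (-1.11, SD 0.37). Gstm3 read 187 and 120.5, 1.56-fold lower, and its second probe set was above the floor only in the control (56.2 against 17.0), which makes it at least 3.16-fold lower there. Gstm2 read 311 and 224, a log2 ratio of -0.47, and Gstm4 439 and 377, a ratio of -0.22, both within 1.5-fold. Gstm7 read 206 and 299, 1.46-fold higher (0.54, SD 0.37), and its dimmer second set, at 18.7 and 32.4, was 1.73-fold higher. Gstm5 read 160 and 179, a ratio of 0.16.

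The probe sets of Gstm1, which encodes the main mu enzyme of liver, disagreed. The 2 bright sets were lower in the Tmprss6-deficient liver, at 5657 and 4325 and at 4672 and 3340.0, ratios of -0.39 and -0.48. The 2 dimmer sets were higher, at 506 and 678 and at 104 and 129.6, ratios of 0.42 and 0.32. Their mean was -0.031, so the gene as a whole cannot be given a direction from these arrays. In chromosome order the 2 mu genes that read higher, Gstm5 and Gstm7, lie side by side, and the brightest probe sets of the next 5, from Gstm6 to Gstm4, read lower, by less from each to the next. Gstm genes are close copies and may share probes.

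The other classes held few genes. Gstp1, the pi enzyme gene that is far more active in male than in female mouse liver, read 18854 in the control and 12081 in the Tmprss6-deficient liver, 1.56-fold lower (-0.64, SD 0.18), short of 1.5-fold under 1 alternative. Gstp3 read 89.6 and 136, 1.52-fold higher (0.61, SD 0.37), and fell below 1.5-fold under 4 of 10 alternatives. The theta genes were lower or close. Gstt2 read 1835 and 1164, 1.58-fold lower (-0.66, SD 0.18), Gstt1 read 1595 and 1149, 1.39-fold lower (-0.47, SD 0.18), and Gstt3 read 227 and 217. Gstt4 was below the floor on both arrays.

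The zeta, kappa and omega classes gave 1 measured gene each. Gstz1, which encodes the maleylacetoacetate isomerase of tyrosine breakdown, read 2778 and 2519 (-0.14, SD 0.18). Gstk1, of mitochondria and peroxisomes, read 1232 and 1373 (0.16, SD 0.18). Gsto1, whose enzyme reduces dehydroascorbate, read 1197 and 1468 on 1 probe set and 1085 and 1617 on the other, 1.23-fold and 1.49-fold higher, so that its second set lay just short of 1.5-fold. Gsto2 was below the floor on both arrays.

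The microsomal enzyme genes lay within 1.5-fold where measured on their brightest sets. Mgst1, which protects membranes against lipid peroxides, read 19260.1 and 17940, a log2 ratio of -0.10 that turned above 0 in 1 alternative. A second, dim set of Mgst1 passed the floor in the control alone, with 20.3 against 3.20. Mgst3 read 67.7 and 70.5, a ratio of 0.057 that turned below 0 with the mean of its probe sets, and its second set read 20.2 and 4.10. Mgst2, whose enzyme can make leukotriene C4, was below the floor on both arrays.

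**Figure D3:**
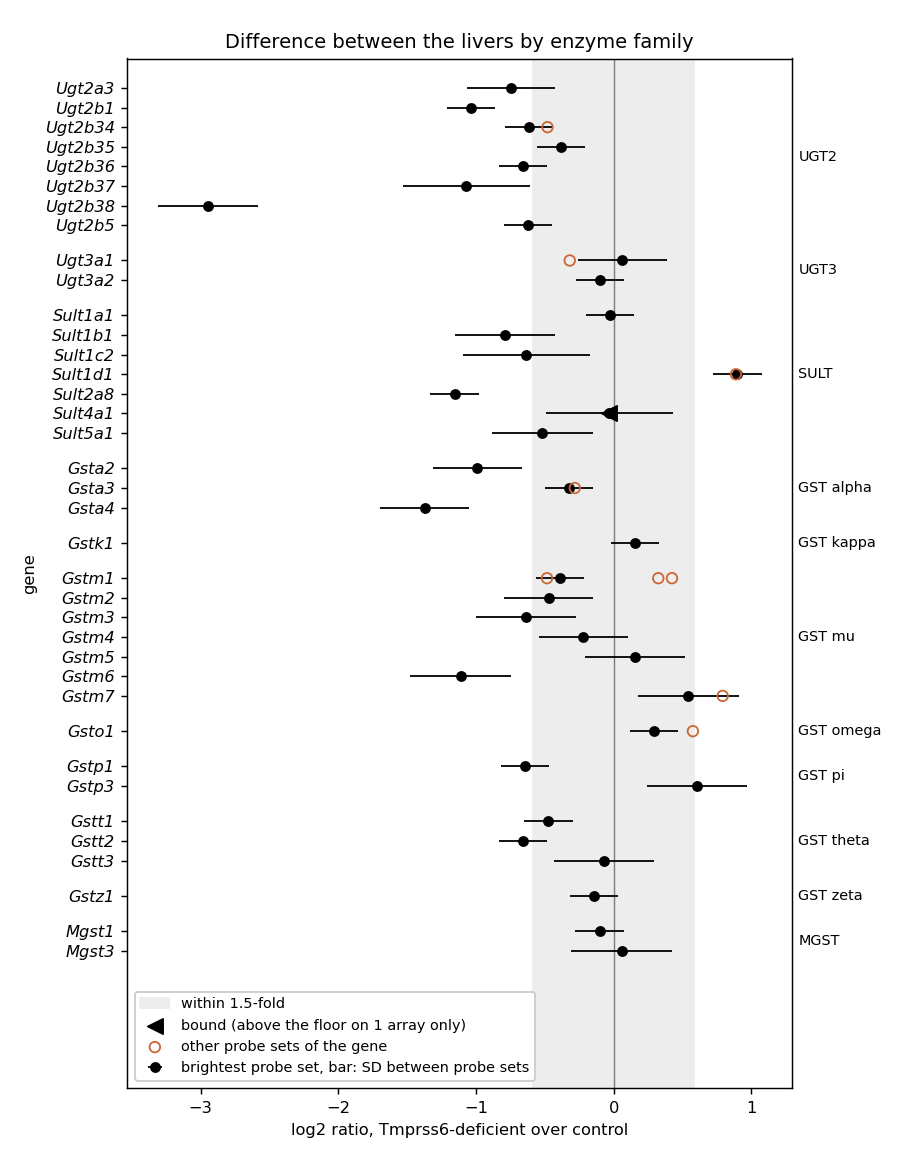
Log2 ratio of Tmprss6-deficient over control for the 37 measured genes, by family. Filled points are the brightest probe set, with a bar of 1 probe set SD at that signal, open circles are other probe sets that reached the floor in both livers, the triangle is a bound, and the grey band holds differences within 1.5-fold. Ugt2b38 lies at -2.95, and the 4 sets of Gstm1 lie on both sides of 0.

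In 7 conjugation genes at least 2 probe sets reached the floor in both livers. Of these, Gstm1 and Ugt3a1 had sets of opposite sign and the other 5 had sets of 1 sign. Those 5 were Gsta3, Gstm7, Gsto1, Sult1d1 and Ugt2b34.

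The core of the antioxidant response element, TGACNNNGC on either strand, through which NRF2 acts, was present in the promoter windows of 4 of the 41 members that had one (9.76%), against 14.0% of 27025 genes. The 29-base stretches that hold it are shown with the core in capitals. They were picked for display because the 2 mu genes that read higher are among them, so the match with the ratios is no result. Gstm5 was higher by less than its probe set SD, and Gsta3 and Mgst1 read lower. A link between the core and the ratios was not tested.
Gstm7: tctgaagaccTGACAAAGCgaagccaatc
Gstm5: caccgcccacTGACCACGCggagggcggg
Gsta3: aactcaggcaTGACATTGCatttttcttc
Mgst1: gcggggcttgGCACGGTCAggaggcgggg

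They lie at chr3:107931725-107931753 (minus strand), chr3:107895802-107895830, chr1:21240454-21240482 and chr6:138140461-138140489 (plus strand) in GRCm38.p6, and the log2 ratios of these genes were 0.54, 0.16, -0.33 and -0.10. The core of the xenobiotic response element, GCGTG on either strand, through which the aryl hydrocarbon receptor acts, was present for 9 of 41 (22.0%), against 35.2% of genes. A match is a description of the letters only, and enhancers farther away were not searched.

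Among genes listed around the supply and use of the donors, few differed by 1.5-fold. In this and the following lists the shares of all measured genes, 8.81% higher and 9.26% lower, are the background, and a count of 1 in lists of this size is close to them. For UDP-glucuronic acid, all 6 listed genes were measured and within 1.5-fold, with a median log2 ratio of -0.11. Not all 6 supply it. Gys2, for example, encodes a glycogen synthase, which uses UDP-glucose, and whether the transporter genes Slc35b1 and Slc35a3 have a part in supply was not checked. Ugp2, which makes UDP-glucose, had a ratio of 0.17, with its 4 other sets between -0.044 and 0.070, Slc35d1 ratios of -0.16 and, on a dimmer set, 0.47, Gys2 and Slc35b1 each -0.13, and Ugdh, which oxidises UDP-glucose to UDP-glucuronic acid, read 1508 and 1456. For PAPS, 8 genes were measured, of which 1 was at least 1.5-fold higher and 1 as much lower, with a median of 0.22. Papss2, the PAPS synthase gene of liver, read 709 and 1173, 1.66-fold higher, and its 2 other sets above the floor were 1.41-fold and 1.32-fold higher. The sulfate transporter gene Slc26a2 was above the floor only in the control and at least 1.70-fold lower, Slc35b3, a PAPS carrier, had a ratio of -0.52 and Bpnt1 ratios of 0.29 and, on a dimmer set, -0.16.

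For glutathione, 15 genes were measured, 14 of them within 1.5-fold, 1 higher and 0 lower, with a median of -0.0066. Gclc and Gclm, the subunits of the rate-limiting ligase, read 2490.4 and 2581, and 1307 and 1404, and a second set of Gclm had a ratio of -0.098. The glutathione-degrading Chac1 read 37.0 and 63.8, 1.72-fold higher, Ggct had a ratio of 0.42, Txnrd1 of 0.19, and the reductase gene Gsr of -0.55 on 1 set and 0.33 on another.

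Other conjugating enzymes read lower more often than higher, with 3 of 15 measured genes at least 1.5-fold lower, 0 as much higher, and a median of -0.39. Inmt, which methylates indoles, read 1030.4 and 301, 3.42-fold lower, and Keg1, of the glycine acyltransferase family, read 599 and 284, 2.11-fold lower. Nat1, an arylamine acetyltransferase gene, was above the floor only in the control and at least 1.60-fold lower, and Acsm1, which activates acids for glycine conjugation, had a ratio of -0.55. In the mercapturic acid pathway, which processes glutathione conjugates, 1 of 10 measured genes was higher and 2 were lower, with a median of -0.27. The acylase gene Acy1 read 84.3 and 148, 1.76-fold higher, Ggt6 read 137 and 86.2, 1.58-fold lower, Dpep1 was at least 1.82-fold lower, and Kyat3 had a ratio of -0.54.

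Of 6 genes listed as deconjugating enzymes, the carboxylesterase gene Ces1d among them, 1 was higher and 2 lower, with a median of -0.22. Ces1d was 1.97-fold lower on the brightest of 3 sets and 1.55-fold and 1.14-fold lower on the others. Abhd10 was dim, 1.84-fold lower on its brighter set and 1.13-fold lower on the other. Arsb was 1.68-fold higher, and 1.97-fold higher on a dimmer set, and Arsa had a ratio of -0.46. Of 9 measured efflux transporter genes, 1 was higher and 2 lower, with a median of -0.067. Abcc2, the canalicular exporter of glucuronides and glutathione conjugates, read 730 and 1143, 1.57-fold higher, and Abcc3, its sinusoidal counterpart, 1369 and 1032, a ratio of -0.41. The related genes Abcb1b and Abcb1a were dim and 2.14-fold and 2.09-fold lower.

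**Figure D4:**
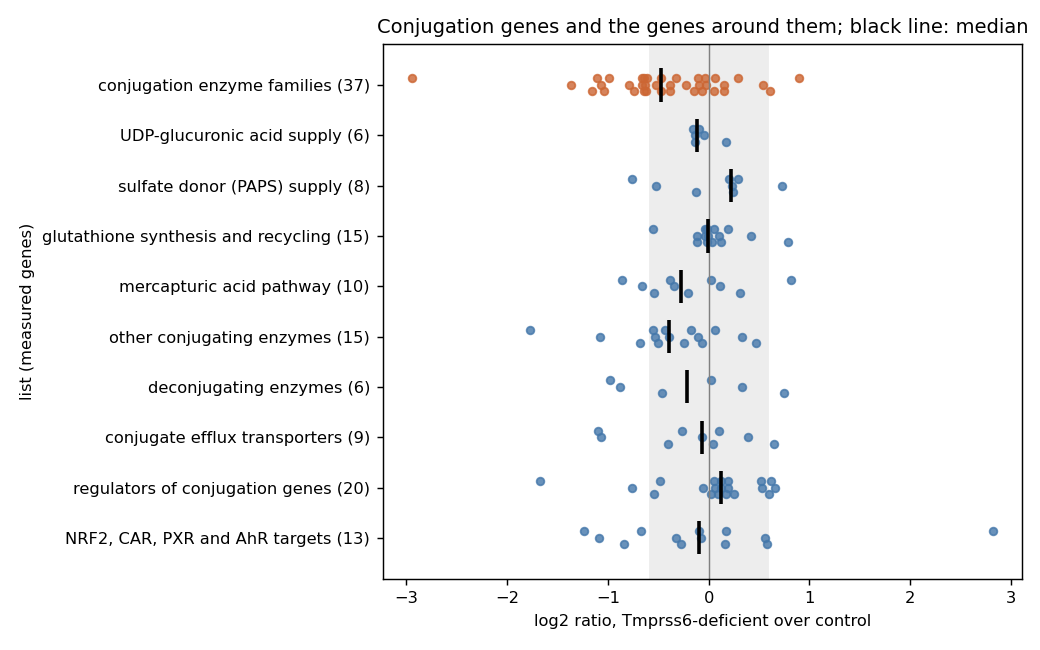
Log2 ratio of each measured gene of the conjugation enzyme families (top) and of the lists of genes around them, with the number of measured genes in brackets, a black line at the median and a grey band for differences within 1.5-fold. The median is -0.47 for the enzyme families and between -0.39 and 0.22 for the other lists.

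Of 20 measured regulator genes, 3 were at least 1.5-fold higher and 2 as much lower, close to the 8.81% and 9.26% of all measured genes, with a median of 0.12. Bcl6, a repressor that is more active in male liver, read 535 and 168, 3.19-fold lower, and 1.81-fold lower on a dimmer set. Nr1i3 (CAR) read 1367 and 805.7, 1.70-fold lower, and Nr1i2 (PXR) read 232 and 335, a ratio of 0.53. Hnf4a, a main activator of hepatocyte genes, read 3149.6 and 4847, 1.54-fold higher, and its 3 other sets were 1.93-fold to 2.64-fold higher. Esr1 read 269 and 426, 1.58-fold higher.

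The other sensors were closer or unclear. Nfe2l2 (NRF2) read 503 and 482 on its brighter set and 71.5 and 33.7 on the other. Its inhibitor Keap1 had ratios of 0.25 and 0.61 on its 2 sets. Ahr had a ratio of -0.48 on its brighter set and 0.76 on a dim set.

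Target genes of these regulators outside the families were also read. Of 13 measured, 1 was higher (7.69%) and 4 lower (30.8%) by 1.5-fold or more, with a median of -0.096. Cyp2b10, a CAR target, read 122 and 862, 7.08-fold higher, while Cyp1a2, an aryl hydrocarbon receptor target, read 3666 and 1558, 2.35-fold lower. Tiparp, another target of that receptor, had ratios of 0.58, 0.56 and 0.54 on its 3 sets. Aldh1a7 was 2.13-fold and Aldh1a1 1.60-fold lower, and Cyp3a11, a PXR target, had a ratio of -0.075. Of NRF2 targets, Cbr3 was dim and 1.79-fold lower, and Nqo1 read 61.2 and 68.8, a ratio of 0.17. The other measured targets are not named here, so the targets of a regulator are not described as a set.

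Markers of other liver cells differed between the arrays as well, and their part in the differences above was not tested. Of 7 Kupffer cell markers, all measured, 1 was higher and 3 lower by 1.5-fold or more, with a summed signal of 2603 in the control and 1850.5 in the Tmprss6-deficient liver. Of 7 endothelial markers, 1 was higher and 3 were lower, with sums of 1147 and 985. The higher one, Lyve1, read 32.3 and 152. Of 4 measured erythroid markers 2 were lower, with sums of 725 and 333. Alas2, at 593.5 and 231.9, made up most of both sums, and the probe sets of Hbb-b2 had ratios of 0.53 and -0.64. Of 4 measured bile duct markers 2 were lower, and each of the 4 was above the floor in the control only. The 5 bile duct markers named on the array summed to 130 and 42.4. The 7 stellate cell and fibroblast markers were all within 1.5-fold, with sums of 2095 and 2519.9. Of 5 measured neutrophil markers 2 were higher, and the 6 named on the array summed to 172 and 174. Of 4 measured lymphocyte markers 0 passed 1.5-fold, and the 6 named on the array summed to 88.5 and 88.8. Of 3 measured pancreas, gut and kidney markers, 1 was lower. The 3 were Cela1, at 228.7 and 145.7, Prss2, at 33.9 and 46.5, and Fabp2, at 2046 and 2076. The only adipocyte marker measured, Cidec, read 412 and 766. The pancreas markers Cpa1 and Ins2, the gut marker Vil1, the kidney markers Umod and Slc34a1, the fat markers Adipoq and Lep, the T cell markers Cd3e and Cd3g, the neutrophil marker Camp and the bile duct marker Sox9 were below the floor in both livers.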

How the data were processed

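The deposited values are intensity signals, which the authors computed for every probe set by MAS5 according to the submitters' processing notes. No version or setting of MAS5 is stated in the sources used here. Both arrays, 1 per group by their labels, were scaled to the same mean after leaving out 2% of probe sets at each end, which changed values by under 0.1%. Signals under the floor of 17.8, the median of all but 64 control sets, were set to it. Each gene takes the value of its brightest probe set (by the mean of log2 signals over both arrays). Where only 1 array passed the floor, the fold is a bound and is written "at least". With 1 array per group, called means 1.5-fold or more, and the number of arrays limits the precision. Names came from the platform annotation, all 46 members were found in RefSeq's table (GRCm38.p6), and 5 probe sets naming several genes were set aside. Sequences are RefSeq's, 250 bases before to 50 after each start, found for 41 members.

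The members and the gene lists were chosen with earlier results of these data known, and so support nothing by their choice. Of each surrounding list, up to 4 genes with the largest ratios are named, with Nr1i2, Nr1i3, Ahr, Nfe2l2, Keap1, Cyp2b10, Cyp1a2 and Nqo1. Ugdh, Gclc, Gclm, Tiparp, Aldh1a1 and Cyp3a11 were added to these once their values had been seen, and the cell type markers come from their own list. The alternatives tried are given at the close. Steps were tested on simulated data. Analysis used Python 3.11.15 with pandas 2.3.3.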

Additional observations from a re-analysis of the deposited data

How the results depend on the processing

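Results were recomputed under 10 alternatives: scaling to the median or none, quantile normalization or loess, a floor at the 30th percentile of signals or at the 70th, adding the floor to each signal as a pseudocount, averaging a gene's measured probe sets, using plain _at probe sets alone, and leaving out genes with a bound. The count of conjugation genes higher by 1.5-fold or more was 1 in place of 2 with scaling to the median, with quantile normalization, with loess and with the pseudocount, since Gstp3 lies close to 1.5-fold, and 3 with the lower floor and with averaged probe sets. The count of lower genes was 16, and between 12 and 20 over the alternatives. The medians of the UGT2, SULT, alpha, mu and theta groups stayed within the SD between probe sets, except that the alpha class had too few plain probe sets for a median. Of 18 genes past 1.5-fold, 10 were past it under every alternative that could give a value and 0 changed sign. Gstm3 was -1.15 with the mean of its sets and -1.66, a bound, on its plain set, but -0.57 with the pseudocount, short of 1.5-fold. Ugt2b38 was -2.51 with the pseudocount. Ugt2b37 was -0.32 at the higher floor, which lies above its signal in the Tmprss6-deficient liver, and Gstm1 was -0.031 with the mean of its sets. Only 1 gene within 1.5-fold, Gstm7, passed it in an alternative. No paired analysis was possible because each group holds 1 array. Without replicates, no array could be left out, and signals near the floor limit what can be said of the dim genes.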
